A study of Homo sapiens with 6 samples.

Results

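The short arm of chromosome 19 carried a dense run of V5-GSE1 peaks that included the genes for the intercellular adhesion molecules (ICAMs). The regions described here were chosen by position: peaks of either list whose start lay from 7 to below 11 Mb of chromosome 19 (hg38). The segment itself had been selected on the peak density of these same lists, so that peak numbers, widths and scores are a description and were not tested. The rule found 692 of 21401 peaks in the DMSO list (3.23%) and 771 of 13233 peaks in the MC2580 list (5.83%).

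ChIP-seq with an antibody against the V5 tag was done in NB4 cells, which derive from a human acute promyelocytic leukaemia and carry the PML-RARA fusion. Cells were transduced with the lentiviral vector pLEX_307 carrying V5-tagged GSE1 (transcript variant 2) or with the empty vector (EV). GSE1 cells were treated for 24 h with DMSO or with 2 µM MC2580, which inhibits the histone demethylase LSD1, and the EV cells were labelled as having no treatment. Each of the 3 ChIPs had its own input, giving 6 libraries in 6 groups of 1. The protein mapped was thus the added, tagged GSE1 and not the endogenous one. The 2 peak lists were called on 1 library each, against the input and the EV ChIP, so that every difference given below is a difference between 2 libraries, with no replicate error and with unknown sequencing depth. Intervals are 95% intervals and cover counting error only.

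GSE1 is a subunit found with LSD1 and the CoREST corepressor, complexes that remove methyl and acetyl groups from histones and keep genes of blood cell differentiation low. ICAM1, ICAM3, ICAM4 and ICAM5 lie close together on this arm and encode immunoglobulin-type adhesion proteins, ligands of leukocyte integrins such as LFA-1. They are flanked by TYK2, a Janus kinase of interferon and interleukin receptors, and by DNMT1, which copies DNA methylation after replication.

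A few sequences show what the peaks covered. The first 2 are the bases directly before the start sites of ICAM1 and ICAM4 as RefSeq gives them (build GRCh38, plus strand), because both lay inside the widest DMSO peak and inside a single long MC2580 peak. Capitals mark matches, on either strand, to the SP1 word GGGCGG or to the STAT-type word TTCNNNGAA. The ICAM1 stretch at chr19:10270870-10271119 held SP1 words that began 206 and 59 bases before the start and a TTCNNNGAA word that began 75 bases before it. The ICAM4 stretch at chr19:10286705-10286954 held none of the words searched.

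ICAM1 promoter: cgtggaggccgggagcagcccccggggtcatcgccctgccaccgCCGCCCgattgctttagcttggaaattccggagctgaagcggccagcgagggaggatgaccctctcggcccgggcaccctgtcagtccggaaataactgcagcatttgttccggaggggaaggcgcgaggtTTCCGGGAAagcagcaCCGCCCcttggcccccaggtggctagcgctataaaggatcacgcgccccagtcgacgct

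ICAM4 promoter: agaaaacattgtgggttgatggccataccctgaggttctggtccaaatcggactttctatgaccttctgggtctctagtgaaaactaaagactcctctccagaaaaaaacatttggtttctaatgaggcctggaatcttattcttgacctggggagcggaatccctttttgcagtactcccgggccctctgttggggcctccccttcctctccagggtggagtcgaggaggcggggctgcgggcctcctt

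For scale, 45.0% of 35116 RefSeq promoters held GGGCGG and 7.66% held TTCNNNGAA. The next 2 sequences (hg38, plus strand) are 200-base stretches from the centres of peaks found in only 1 list. One came from a DMSO peak with no MC2580 counterpart, outside protein-coding genes and 6580 bp from the start of MUC16 (chr19:9018340-9018539). The other came from an MC2580 peak with no DMSO counterpart in the olfactory receptor cluster, 19044 bp from the start of OR7D2, the nearest protein-coding start (chr19:9198784-9198983). Both peaks held another annotated start site, not of a protein-coding gene. Capitals mark GGGCGG in the stretch near MUC16, and in the stretch near OR7D2 the RUNX word TGTGGTTT, the GATA word AGATAA and the CEBP word TTGCNNAA, on either strand.

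DMSO peak without counterpart, near MUC16: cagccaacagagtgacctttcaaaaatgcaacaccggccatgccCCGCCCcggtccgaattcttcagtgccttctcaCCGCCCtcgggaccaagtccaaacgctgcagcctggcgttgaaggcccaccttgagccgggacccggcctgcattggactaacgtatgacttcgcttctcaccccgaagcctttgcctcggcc

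MC2580 peak without counterpart, near OR7D2: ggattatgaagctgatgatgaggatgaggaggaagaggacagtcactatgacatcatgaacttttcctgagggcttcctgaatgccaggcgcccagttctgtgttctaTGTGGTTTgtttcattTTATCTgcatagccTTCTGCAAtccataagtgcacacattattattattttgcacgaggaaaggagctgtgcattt

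The first question was how much of the segment was covered by peaks in each condition. DMSO peaks covered 2.07 Mb, or 51.7% of the 4 Mb, and MC2580 peaks covered 1.80 Mb, or 45.0%. The MC2580 list thus held more peaks in the segment than the DMSO list, a ratio of 1.11, over a shorter length, a ratio of 0.871. On the rest of chromosomes 1 to 22, X and Y both ratios were lower, 0.596 for peak number and 0.586 for length. A second dense segment, on the long arm of chromosome 19 from 45 to 49 Mb, had ratios of 1.21 and 0.928.

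The peaks were not spread evenly over the 4 Mb. A dense block of 2.67 Mb, chr19:8065201-10732427, held 646 DMSO peaks (93.4% of those in the segment) and 750 MC2580 peaks (97.3%). Its borders are the ends of the long MC2580 peak-free stretches on both sides and were set after the data were seen. Peaks covered 75.8% of the block in DMSO and 66.8% in MC2580. In the part before the block the covered share was 4.11% and 1.87%, with 42 and 21 peaks. After the block there were 4 DMSO peaks and 0 MC2580 peaks, and the 0 follows from where the border was set.

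Protein-coding start sites numbered 37.6 per Mb before the block, 28.1 per Mb in it and 22.4 per Mb after it. Over 16 windows of 250 kb the Spearman correlation of the covered share with the number of start sites was 0.26 in DMSO and 0.27 in MC2580, and with GC content 0.11 and 0.12. These windows adjoin each other and share the same libraries, so the values are descriptive. The coverage of the input libraries over the block was not analysed here, so that the DNA copy number of the block in these cells is unknown. Its part in the number, width and score of the peaks was not tested.

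**Figure D1:**
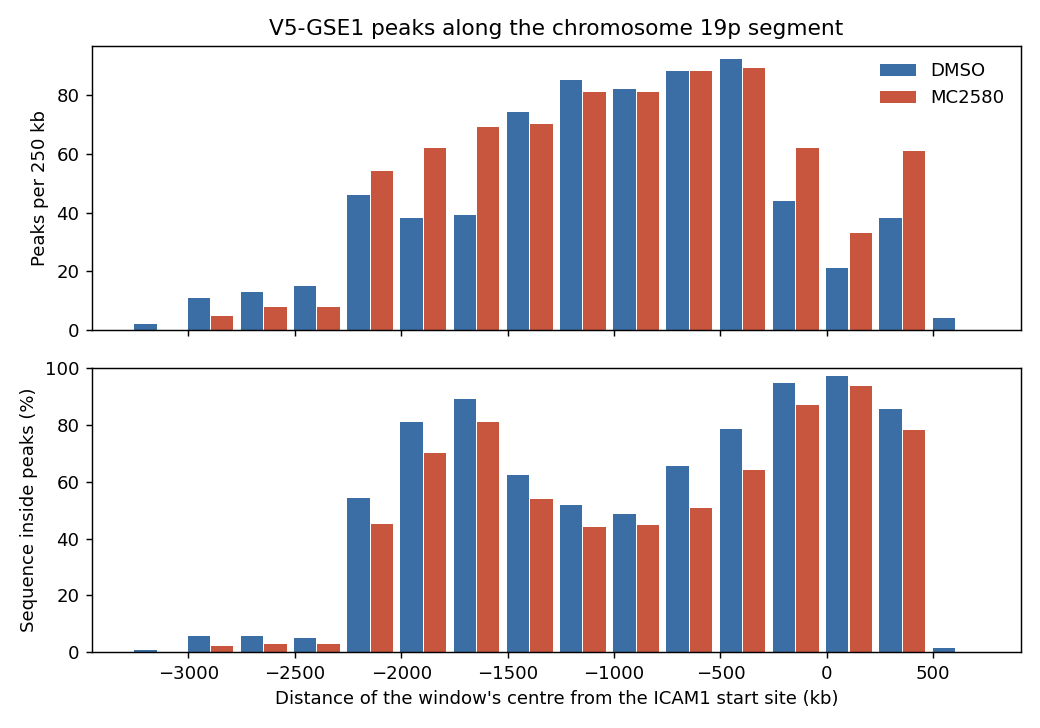
Number of peaks (top) and percent of sequence inside peaks (bottom) in 16 windows of 250 kb, by distance of the window's centre from the ICAM1 start site in kb, for the DMSO and the MC2580 list (1 library each, no error bars). The window that holds the ICAM genes had the highest covered share, 97.3% and 93.5%, with only 21 and 33 peaks, and both lists dropped below 6% outside the dense block.

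Between the windows, number and coverage of peaks moved apart. The window just before 10 Mb had the most peaks, 92 in DMSO and 89 in MC2580, and was covered to 78.6% and 64.2%. The window with the ICAM genes had 21 and 33 peaks and was covered to 97.3% and 93.5%. Few and long peaks therefore stood beside many and short ones inside the same block. DMSO covered more sequence than MC2580 in 16 of 16 windows. MC2580 had more peaks in 6, fewer in 9 and as many in 1.

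Peak width had a median of 1633.5 bp in DMSO (1513 to 1769) and 1508 bp in MC2580 (1409 to 1597). At the 90th percentile the widths were 5915.5 and 4503 bp, and the widest peaks spanned 127639 and 63092 bp. The difference between the lists was thus larger among long peaks than at the median, where the intervals overlapped.

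Peaks of at least 10 kb, called wide here, numbered 36 in DMSO, or 5.20% of the members (3.78 to 7.12), against 0.692% of the whole list. In MC2580 they numbered 13, or 1.69% (0.988 to 2.86), against 0.861%. They held 31.8% of the covered length in DMSO and 13.7% in MC2580. The segment contained 24.3% of all wide DMSO peaks and 11.4% of all wide MC2580 peaks. Just inside the limit the narrowest wide peaks had 10113 and 10045 bp, and just outside it the next had 9786 and 9861 bp. The contrast in number depended on short gaps: when peaks within 1 kb of each other were merged in each list, 41 DMSO and 52 MC2580 regions of at least 10 kb resulted.

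The widest DMSO peak covered the ICAM genes, chr19:10249891-10377529. It was 127639 bp long, with a score of 3100 and a GC content of 54.5%. Inside it started MRPL4, a protein of the mitochondrial ribosome, ICAM1, ICAM4, ICAM5, ZGLP1, FDX2, a ferredoxin of iron-sulphur cluster assembly, RAVER1, a splicing cofactor, and ICAM3, together with 2 gene models that GENCODE leaves unnamed and that overlap their neighbours. Most of the body of TYK2 followed, while the TYK2 start site lay beyond the end of the peak.

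In MC2580 the same sequence was divided among 4 peaks. A peak of 46742 bp (chr19:10249957-10296698) covered MRPL4, ICAM1, ICAM4 and nearly all of ICAM5. A peak of 14639 bp (chr19:10299024-10313662) covered ZGLP1 and the end of FDX2, and a peak of 63092 bp (chr19:10313765-10376856) covered the start of FDX2, RAVER1, ICAM3 and most of TYK2. These 3 peaks all had a score of 3100. The remaining one, of 2018 bp with a score of 173.77, reached in from the left edge only. The breaks between them measured 20, 2325 and 102 bp and contained no start site, and MC2580 peaks covered 97.6% of the DMSO peak. The longest break contained the last bases of ICAM5, in its final exon and untranslated region.

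**Figure D2:**
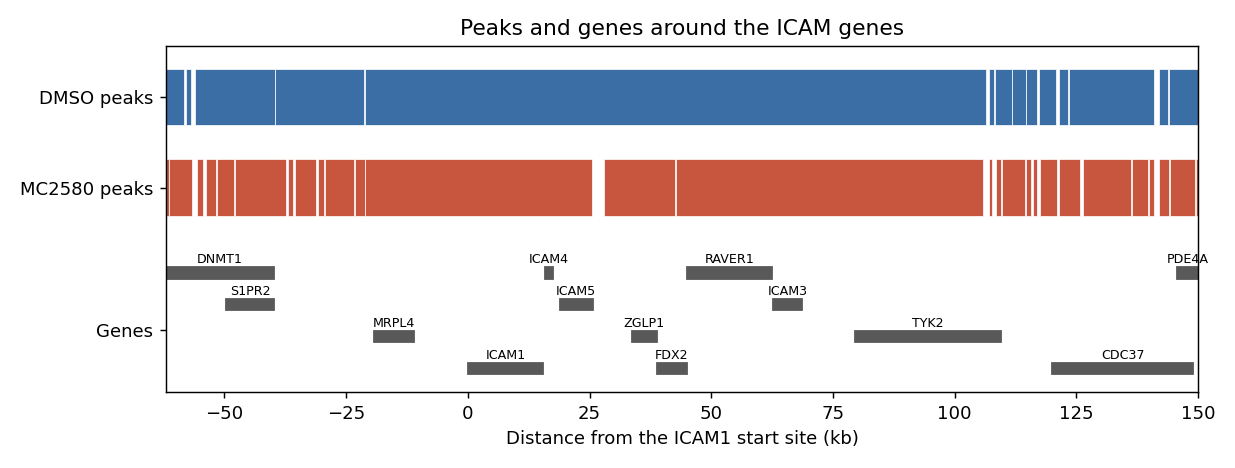
Peaks of the DMSO list (blue) and the MC2580 list (red) and named protein-coding genes (grey) by distance from the ICAM1 start site in kb, where white lines mark the borders of peaks, also where the gap is only a few bases. The 127639 bp DMSO peak runs over the ICAM genes, and the 2325 bp break past ICAM5 is the widest gap in the MC2580 peaks under it.

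The ICAM peak did not stand alone. In the DMSO list a peak of 18355 bp ended 14 bp before it, and a peak of 16460 bp over the start of DNMT1 and over S1PR2, a receptor for sphingosine-1-phosphate, ended 3 bp before that one. Both had a score of 3100. The 3 together formed a stretch of 162471 bp from DNMT1 to TYK2 with no gap of 100 bp or more. In MC2580 the stretch was overlapped by 12 peaks, which covered 96.2% of it, and the longest MC2580 stretch joined by gaps under 100 bp was the single peak of 63092 bp.

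The pattern seen at the ICAM genes was found at every wide DMSO peak of the segment. All 36 were overlapped by more than 1 MC2580 peak (100%, 90.4 to 100), with a median of 4 and a maximum of 7. The overlaps numbered 145, where an MC2580 peak counted anew for each wide DMSO peak it reached. Each of the 36 was covered by MC2580 peaks over 72.5% to 99.7% of its length, with a median of 91.5%. Of their summed length 92.0% was covered. Elsewhere on chromosomes 1 to 22, X and Y, 77 of 110 wide DMSO peaks were divided in this sense, or 70.0% (60.9 to 77.8), and on the long-arm segment 56 of 66, or 84.8% (74.3 to 91.6). The opposite case was less frequent among the segment's members. Of the 13 wide MC2580 peaks, 6 lay over more than 1 DMSO peak (46.2%, 23.2 to 70.9), and 99.5% of their length was inside DMSO peaks. Wide peaks of each list were picked by width in that list, and an overlap of 1 bp was enough. Meeting several shorter peaks of the other list was thus partly fixed in advance. When peaks within 1 kb were merged in each list, the shares were 82.9% of wide DMSO and 30.8% of wide MC2580 regions.

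**Figure D3:**
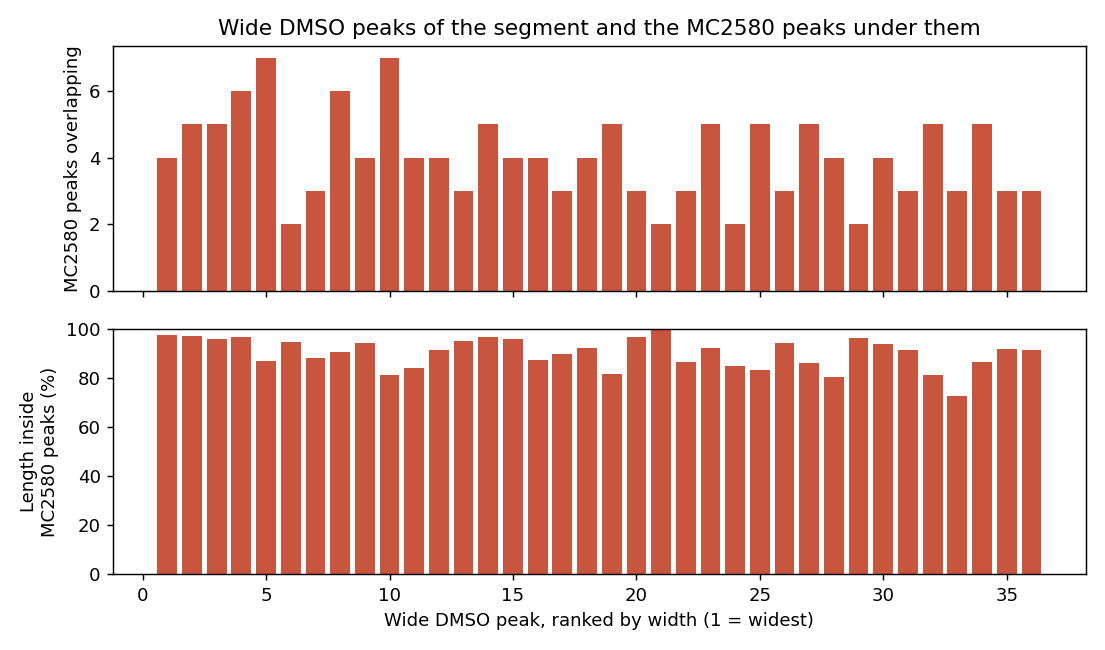
Number of MC2580 peaks overlapping each of the 36 wide DMSO peaks of the segment (top) and percent of its length inside MC2580 peaks (bottom), ranked by width on the x axis with the widest first. The number ranged from 2 to 7 and the covered share from 72.5% to 99.7%, so that every wide peak was divided while most of its length was kept.

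The 109 breaks inside the wide DMSO peaks were mostly short. They had a median of 241 bp, with 3 bp as the shortest and 2597 bp as the longest, and 23 were under 100 bp. Together they spanned 41908 bp. Words of 24 bases that occur at least 10 times on chromosome 19 made up 26.9% of the breaks and 15.8% of the MC2580 pieces beside them, and GC content was 50.8% and 53.2%. This measure was chosen after the data were seen. In the 7 breaks inside the wide MC2580 peaks such words made up 16.9%, against 17.3% of the DMSO pieces beside them. Over the dense block they made up 17.7% of uncovered and 15.7% of covered sequence in DMSO, and 17.9% and 15.3% in MC2580. The lists were made from uniquely placed reads, and the part that repeated sequence had in the breaks was not tested.

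Beyond the ICAM block the widest DMSO peaks covered genes of several kinds. The one next in width, 28349 bp with a score of 3100, lay over the end of HNRNPM, a splicing factor, and over PRAM1, an adaptor protein found as a gene repressed by PML-RARA. In MC2580 it was overlapped by 5 peaks with scores of at most 2431.66. A peak of 23330 bp held the start sites of NDUFA7, a subunit of respiratory complex I, RPS28, a ribosomal protein, and an unnamed gene model, in addition to KANK3 sequence, and 6 MC2580 peaks overlapped it.

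The division was finest at SLC44A2 and RAB11B. A DMSO peak of 21320 bp with a score of 3100 over the 3′ part of SLC44A2, a choline transporter-like protein that carries a neutrophil antigen, was overlapped by 7 MC2580 peaks. Their highest score was 850.36, the lowest such value among the DMSO peaks with 3100, and they covered 86.9% of it. At RAB11B, a small GTPase of recycling endosomes, a DMSO peak of 16993 bp with a score of 2971.12 was also overlapped by 7 MC2580 peaks. The widest of them had 3789 bp, and the highest score was 589.67. At both loci the MC2580 scores were thus below that of the DMSO peak. Score ran closely with width in both lists, and the MC2580 peaks here were shorter, so the scores add little to the division itself.

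At DNMT1 the picture was different at the gene's 3′ end. A DMSO peak of 19885 bp (chr19:10129557-10149441) with a score of 3100 was matched by an MC2580 peak of 17621 bp with a score of 2920.04, the widest MC2580 peak below 3100. Only 2 MC2580 peaks overlapped it. Over the whole gene there were 12 DMSO peaks and 23 MC2580 peaks, which covered 96.5% and 90.6% of its body. At KEAP1, the adaptor that marks the stress factor NRF2 for degradation, a peak of 19588 bp was overlapped by 3 MC2580 peaks, and at CDC37, a co-chaperone of protein kinases, a peak of 17427 bp was overlapped by 4.

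Of the wide MC2580 peaks outside the ICAM block, the highest scores after DNMT1 were 2496.68 in NFILZ and 2431.66 in PRAM1. The wide MC2580 peak over P2RY11, a receptor for extracellular ATP, and EIF3G, a translation initiation factor, was 10475 bp long with a score of 1858.4. It lay over 3 DMSO peaks, the most of any wide MC2580 peak. Wide peaks of both lists were mostly of the promoter class, meaning within 3 kb of an annotated start site of any transcript: 34 of 36 in DMSO and 12 of 13 in MC2580. A protein-coding start site lay inside 16 and 7 of them. Peaks of this length reach a start site by position more easily than narrow ones.

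The peak score is minus 10 times the log10 of the caller's p-value, and many of the strongest peaks of both lists share the value 3100, so that it does not rank them. A score of exactly 3100 was given to 13 DMSO members (1.88%), against 0.542% of the whole DMSO list, and to 3 MC2580 members (0.389%), against 0.65% of the whole MC2580 list. The DMSO share was thus above that of its list and the MC2580 share below it, while on the long-arm segment the shares were 9.13% and 5.28%. All members with 3100 were wide. The 13 DMSO peaks were 11802 to 127639 bp long, with a median of 19588 bp, and the 3 MC2580 peaks were those of the ICAM block. Only at the ICAM block did both lists reach 3100. Under the 13 DMSO peaks the best MC2580 score ranged from 850.36 to 3100, with a median of 1730.31. These 13 were picked by a DMSO score at the shared top value, so that an equal or lower MC2580 score was nearly fixed in advance. Under the 3 MC2580 peaks with 3100 the DMSO score was likewise 3100.

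A single member exceeded 3100, a DMSO peak of 14970 bp in NFILZ (chr19:8632623-8647592) with a score of 3170.53. Just below 3100 the next scores were 2971.12 in DMSO, at RAB11B, and 2920.04 in MC2580, at DNMT1. A DMSO peak of 17427 bp at CDC37 had 2948.46 although shorter peaks had 3100, so that width alone did not set the value. Width and score still ran closely together over the members, with a Spearman correlation of 0.96 in both lists, against 0.82 and 0.86 over the peaks on the rest of chromosomes 1 to 22, X and Y. On the long-arm segment the correlation was 0.97 in DMSO and 0.98 in MC2580. Width and score of a list come from the same reads of 1 library.

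**Figure D4:**
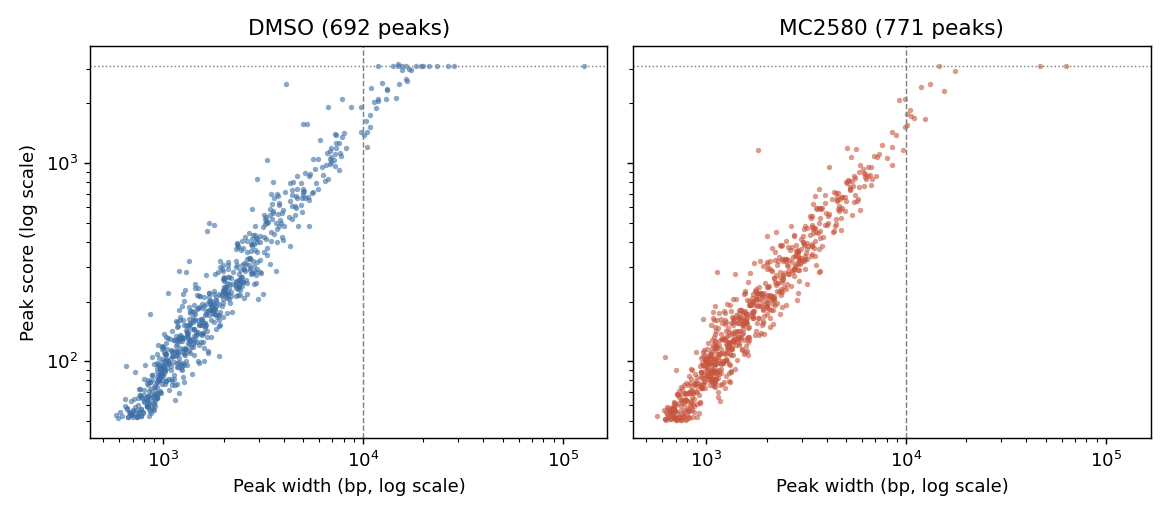
Score against width in bp of each peak of the segment, both on log scales, for the DMSO list (left, 692 peaks) and the MC2580 list (right, 771 peaks), with a dashed line at 10000 bp and a dotted line at a score of 3100. Score increased with width in both lists, and 13 DMSO peaks and 3 MC2580 peaks lay on the dotted line, all of them to the right of the dashed one.

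The median score of the wide peaks was 2613.19 in DMSO and 2314.32 in MC2580. Over all members the median was 180.35 in DMSO (161.87 to 196.3) and 157.86 in MC2580 (142.5 to 169.81). Scores of 100 or more were found for 513 peaks of the DMSO list (74.1%) and 540 of the MC2580 list (70.0%). In 206 places a single peak of each list overlapped only one another. The MC2580 score was the lower one in 128 of them, 62.1% (55.3 to 68.5), with a median ratio of 0.815 (0.748 to 0.884). On the rest of chromosomes 1 to 22, X and Y it was lower in 77.7% of 5091 such pairs, with a median ratio of 0.620 (0.606 to 0.634). Because a score grows with depth, such a ratio cannot tell binding and depth apart.

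The lists overlapped more in the segment than as a whole. By the study's rule of at least 1 bp, 556 of 692 DMSO peaks overlapped an MC2580 peak, 80.3% (77.2 to 83.1), against 33.6% of the whole list. In the other direction 699 of 771 MC2580 peaks overlapped, 90.7% (88.4 to 92.5), against 58% of the whole list. The length inside both lists was 1592915 bp, or 77.0% of the DMSO length and 88.5% of the MC2580 length. On the long-arm segment the shares of peaks that overlapped by at least 1 bp were slightly higher. They were 82.4% of DMSO peaks (78.7 to 85.6) and 93.8% of MC2580 peaks (91.6 to 95.5). Where so much of a sequence is inside peaks, overlap by position alone is frequent, and its part in these shares was not tested. Under a rule of 50% of both peaks the shares in the short-arm segment were 44.1% and 39.6%.

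Taken by connected groups of overlapping peaks, 72 groups held 1 DMSO peak and several MC2580 peaks, and 34 held several DMSO peaks and 1 MC2580 peak. In these, 72 DMSO peaks stood against 182 MC2580 peaks and 70 DMSO peaks against 34 MC2580 peaks. A further 80 groups had several of each, 208 DMSO and 277 MC2580 peaks. Alone stood 136 DMSO and 72 MC2580 peaks. The surplus of MC2580 peaks in the segment therefore came from groups in which both lists had peaks. Many peaks almost touched: 108 of 691 gaps between DMSO peaks (15.6%) and 98 of 770 between MC2580 peaks (12.7%) were under 100 bp, against 2.74% and 3.24% on the rest of chromosomes 1 to 22, X and Y.

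Peaks without a counterpart were short and weak. The 136 in DMSO had a median width of 984.5 bp and a median score of 83.6, and 52 reached 100. The 72 in MC2580 had 863 bp and 71.4, and 18 reached 100. The strongest in DMSO, with a score of 299.34, lay in an intron of CAMSAP3, a protein of microtubule minus ends (chr19:7602850-7605167), 4280 bp from the nearest MC2580 peak. Of the next 4, 3 lay between MUC16 and the olfactory receptor gene OR1M1, with scores of 290.17, 237.31 and 233.26. The last, with 221.1, was in an intron of INSR, the insulin receptor, and its nearest MC2580 peak was 79728 bp away. In MC2580 the strongest was in OR7D4, an olfactory receptor gene, with a score of 181.87 (chr19:9210499-9211946). The others had scores of 178.16 in the stretch printed above, 174.87 in STXBP2, a protein of granule secretion, 165.58 near ZNF266 and 149.17 upstream of MUC16, where the nearest DMSO peak was only 11 bp away.

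Gene coverage was then measured over the 121 protein-coding genes that start in the segment. At least 50% of the gene body lay inside DMSO peaks for 68 genes (56.2%), against 1.11% of all protein-coding genes. For MC2580 it was 62 genes (51.2%), against 0.823%. The start site was inside a DMSO peak for 69 genes (57.0%, against 3.92% of all) and inside an MC2580 peak for 55 (45.5%, against 1.5% of all). These shares restate the density by which the segment was selected. Between the lists, 61 genes were covered to at least 50% in both, 7 in DMSO alone and 1 in MC2580 alone. Coverage was lower in MC2580 for 74 genes, higher for 17 and equal for 30, with a median difference of -2.53 percentage points. Start sites differed more: 53 were inside peaks in both lists, 16 in DMSO alone and 2 in MC2580 alone.

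**Figure D5:**
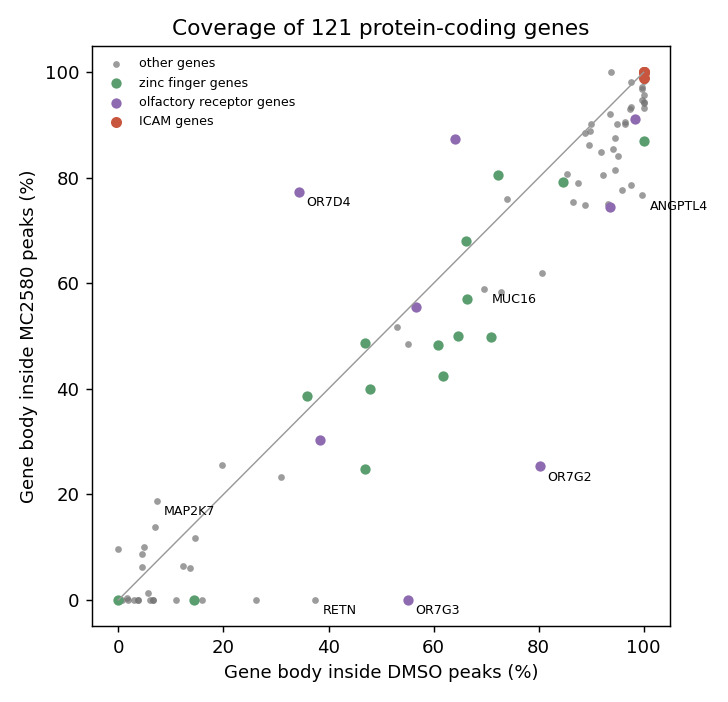
Percent of the gene body inside MC2580 peaks against percent inside DMSO peaks for the 121 protein-coding genes of the segment, with ICAM, zinc finger and olfactory receptor genes in colour and the diagonal marking equal coverage. More genes lay below the diagonal (74) than above it (17), and the 4 ICAM genes sat at the upper right corner.

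Of the gene groups listed, the 4 ICAM genes were the most fully covered. ICAM1 (ENSG00000090339.9, chr19:10271093-10286615), ICAM4 (ENSG00000105371.10, chr19:10286955-10288522) and ICAM3 (ENSG00000076662.11, chr19:10333776-10339661, minus strand) were covered to 100% by 1 peak in each list. ICAM5 (ENSG00000105376.5, chr19:10289952-10296778) was covered to 100% in DMSO and 98.8% in MC2580. All 4 start sites were inside peaks in both lists. Peaks of this width do not resolve the start sites of single ICAM genes.

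Of 17 signalling and chromatin genes listed around the ICAM genes, 14 were covered to at least 50% in each list (82.4%). Over all protein-coding genes of the segment the shares were 56.2% in DMSO and 51.2% in MC2580. TYK2 was covered to 97.5% in DMSO and 93.4% in MC2580, and PDE4A, a phosphodiesterase that breaks down cyclic AMP, to 96.4% and 90.3%. The numbers of peaks were 3 and 3 at TYK2 and 9 and 13 at PDE4A. P2RY11, MRPL4 and RAVER1 were covered to 100% in both. EIF3G was the gene of this list with higher coverage in MC2580, 100% against 93.7%. Start sites were inside peaks for 14 of the 17 genes in DMSO and 10 in MC2580 (82.4% and 58.8%), against 57.0% and 45.5% over the segment. The 4 that differed were those of KEAP1, SLC44A2, CDKN2D, an inhibitor of cyclin-dependent kinases, and DNM2, the GTPase dynamin that cuts vesicles from membranes, and each still had an MC2580 peak within 3 kb.

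The right edge of the block ran through DNM2. Its body was covered to 14.6% in DMSO and 11.8% in MC2580, and the last MC2580 peak of the segment (score 766.65) lay in it. Beyond it CARM1, an arginine methyltransferase, had no peak in either list. SMARCA4, the ATPase of a SWI/SNF remodelling complex, had 1 DMSO peak with a score of 52.07 and no MC2580 peak. The MC2580 list had no peak from 10732428 to the end of the segment, a stretch of 267573 bp, where DMSO had 5 peaks by overlap.

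A list of 18 genes was made for myeloid and leukocyte functions but also holds broadly expressed neighbours such as HNRNPM, ELAVL1 and INSR. Of these, 7 (38.9%) were covered to at least 50% in each list. Over all protein-coding genes of the segment the shares were higher, 56.2% in DMSO and 51.2% in MC2580. The 7 were PRAM1, MYO1F, ADAMTS10, CD320, ANGPTL4, HNRNPM and ICAM3, all inside the block. PRAM1 was covered to 100% by 1 DMSO peak and to 94.3% by 4 MC2580 peaks, and MYO1F, a myosin of leukocytes, to 95.2% by 10 and 84.2% by 19. ADAMTS10, a secreted metalloprotease, was covered to 97.4% and 93.1%, and CD320, the receptor for transcobalamin, to 100% and 94.3%. The largest difference among them was at ANGPTL4, an inhibitor of lipoprotein lipase, with 99.7% in 2 DMSO peaks and 76.7% in 6 MC2580 peaks.

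Outside the block no gene of the same list was covered to more than 37.5% in either peak list, though several had a DMSO peak. CD209, CLEC4M and CLEC4G, C-type lectins of dendritic and endothelial cells, and the chemokine gene CCL25 had no peak in either list. FCER2, the low-affinity receptor for IgE, was covered to 6.67% in DMSO and had no MC2580 peak. ELAVL1 was covered to 3.66% in DMSO and had no MC2580 peak either. RETN, which encodes resistin, had its start site inside a DMSO peak with a score of 132.7 and was covered to 37.5%, and MC2580 had no peak in it or within 3 kb of its start. MCEMP1, a membrane protein of mast cells and monocytes, had its start site inside a DMSO peak with a score of 133.61, and an MC2580 peak lay within 3 kb of it without reaching the gene. MAP2K7, a kinase that activates JNK, and STXBP2 had higher coverage in MC2580, 18.8% against 7.27% and 13.8% against 7.03%. INSR, over 182160 bp, was covered to 1.69% and 0.43%.

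Gene families of the segment were mostly covered in part. Of 15 zinc finger genes, 9 were covered to at least 50% in DMSO and 5 in MC2580, with medians of 61.8% and 48.7%, and 13 and 9 start sites were inside peaks. Of 8 olfactory receptor genes, 6 and 5 were covered to at least 50%, and their differences went both ways. OR7G2 was covered to 80.3% in DMSO and 25.3% in MC2580, and OR7G3 to 55.2% and 0%, whereas OR7D4 was covered to 34.3% in DMSO and 77.3% in MC2580. MUC16, a large cell-surface mucin, was covered to 69.6% by 58 DMSO peaks and to 59.0% by 56 MC2580 peaks.

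The longest peak-free stretches lay outside the dense block. For MC2580 this was partly fixed in advance, since the block's borders were set at the ends of such stretches. In DMSO the stretches spanned 182009 bp over the MBD3L gene cluster, ZNF557 and part of INSR, and 135924 bp from C19orf38 to SMARCA4. Another, of 82067 bp, lay over FCER2, CLEC4G, CD209 and CLEC4M. In MC2580 the stretches spanned 272634 bp over the same MBD3L cluster and INSR, 267573 bp from DNM2 to SMARCA4, and 132688 bp over TIMM44, ELAVL1 and CCL25. The last DMSO peak before 7 Mb lay in VAV1, a signalling protein of blood cells, with a score of 158.64. The first after 11 Mb lay in SMARCA4 at 11059908. The MC2580 list had no peak between 2264262 and 7272635, so that its peaks began later and ended earlier than those of DMSO.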

How the data were processed

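The data were 2 peak lists, one per treated condition of the GSE1 cells, each called on 1 V5 ChIP library. Per the study's methods, reads were aligned to hg38 with Bowtie, uniquely placed reads were kept, and MACS called peaks at a limit of 1e-05 on its p-value over the input and the EV ChIP. How these backgrounds were combined was not stated. The score was deposited by the authors as the caller's value, minus 10 times the log10 of p, so that the calling limit is 50. The submitters' processing notes name bcl2fastq 2, FastQC 0.11.5 and Bowtie 4.8.2 (versions as given there). Read depth was unknown, and peak numbers and scores were not corrected for it.

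Coordinates are hg38, counted from 1. Genes came from GENCODE version 44, with 2 read-through models left out. Peak classes were promoter (within 3 kb of a start site), exon or UTR, intron, and distal intergenic. Promoter sequences came from RefSeq and other sequences from the hg38 genome. Shares have Wilson intervals and medians order-statistic intervals. The finding of overlaps was tested on simulated peaks. Merging, coverage and the median interval were checked on small fixed examples. No test between conditions was made, since each had 1 library. The segment, the gene lists and the alternatives were chosen with earlier results of these data known. Named genes were those of fixed lists (ICAM genes, 17 neighbours, 18 mainly myeloid and leukocyte genes, and zinc finger genes, olfactory receptor genes and MUC16 as families), the genes under the 10 widest peaks and under the 5 peaks of highest score per list, the 5 highest-scoring peaks without counterpart, the 5 wide peaks overlapped by most peaks of the other list, and the 3 longest peak-free stretches. Olfactory receptor genes given singly, and genes at the segment's edges, were named after their values were seen. A gene of these lists and some sequences are not reported here. Intervals were computed with statsmodels 0.14.6 and scipy 1.17.1, tables with pandas 2.3.3 and numpy 2.4.6 under Python 3.11.15, and plots with matplotlib 3.10.9.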

Additional observations from a re-analysis of the deposited data

How the results depend on the processing

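No paired analysis was possible because each condition had 1 library, and for the same reason no replicate could be left out. Of 60 alternative values, 33 stayed within 1.5 times a count, ratio or share of length, or within the 95% interval of a share or median, and 27 did not. The ratio of peak numbers stayed above 1 (1.05 to 1.16) and the ratio of covered length below 1 (0.836 to 0.893) under each alternative run on them. The other shifts follow from how an alternative is built. Merging peaks within 1 kb left 231 DMSO and 265 MC2580 peaks, of which 73.6% and 87.5% overlapped. It raised the wide MC2580 peaks to 52, put 75.9% and 68.3% of the length in wide peaks, and left 82.9% of wide DMSO peaks over several MC2580 peaks. With wide set at 5 kb there were 85 and 62 wide peaks, 31.4% of the MC2580 length was in them, and 88.2% of the DMSO ones were divided. At 20 kb there were 5 and 2, with 10.99% and 6.10% of the length, and 0% of the MC2580 ones were divided. An overlap of 50% of the shorter peak gave 73.0% and 86.0%, and 50% of both gave 44.1% and 39.6%. Without wide peaks 76.5% of MC2580 peaks overlapped. In the dense block alone, an alternative added after seeing the data, 84.8% of DMSO peaks overlapped. At 90% of the gene body 42 and 31 genes were covered, and within 1 kb promoters held 35.1% and 33.9% of peaks. Unknown depth limits every comparison of peak number, width and score between the lists.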

Other observations

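The annotation of the members was alike in both lists. Promoters held 368 DMSO peaks, 53.2% (95% Wilson interval 49.5 to 56.9), and 406 MC2580 peaks, 52.7% (49.1 to 56.2). This class counts start sites of any transcript, coding or not, within 3 kb of either end of a peak. Long peaks reach it more easily by position. No such share of the whole lists is set beside it, so it does not set the segment apart. Introns held 15.0% and 16.6%, exons or UTRs 13.7% and 12.8%, and distal intergenic sequence 18.1% and 17.9%. MC2580 had more peaks than DMSO in each class, with ratios from 1.04 for exons or UTRs to 1.23 for introns. Promoter peaks had the highest median score in each list, 216.5 and 189.175.

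Words of blood cell transcription factors were searched on either strand of 200 bp windows centred on members narrower than 10 kb, 656 in DMSO and 758 in MC2580, and in windows 2000 bp to each side. The PU.1 word GAGGAAGT was found in 0.762% of DMSO centres (0.326 to 1.77) and 0.610% of the windows beside them (0.309 to 1.20), and in 1.32% and 0.792% in MC2580. The RUNX word TGTGGTTT was found in 1.22% and 1.52% in DMSO and in 1.45% and 0.792% in MC2580. The AP-1 word TGANTCA was found in 6.10% and 5.79% in DMSO and 7.52% and 5.61% in MC2580, and the GATA word AGATAA in 6.40% and 8.46% and in 9.76% and 8.18%. The GFI1 word AAATCAC was found in 1.83% and 2.06% in DMSO and 2.37% and 2.11% in MC2580, and the CEBP word TTGCNNAA in 6.86% and 7.24% and in 5.94% and 7.19%. The NF-kB word GGGNNTTCC was found in 2.59% and 1.98% in DMSO and 3.03% and 2.44% in MC2580. The STAT-type word TTCNNNGAA was found in 3.81% and 3.96% and in 3.43% and 3.83%, and the SP1 word GGGCGG in 6.25% and 7.77% and in 6.33% and 7.39%. Intervals of centres and neighbouring windows overlapped for each of these 9 words in both lists. The neighbouring windows were not kept clear of peaks, and gaps between peaks of the segment had medians of 534 bp in DMSO and 596.5 bp in MC2580. The comparison therefore could not tell peak sequence from sequence outside peaks, and no conclusion is drawn from it. Of RefSeq promoters, 2.59% held the PU.1 word, 1.53% the RUNX word, 7.71% the AP-1 word, 10.3% the GATA word, 3.14% the GFI1 word, 10.5% the CEBP word and 6.58% the NF-kB word. Promoter stretches had 250 bases and the windows 200, so that these shares are not directly comparable with those of the windows.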
